A study of Camellia sinensis with 9 samples.

Results

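The levels of 8 named rows of the miR167 family, 3 of the 5p arm (csn-miR167b_5p, csn-miR167e_5p and csn-miR167h_5p) and 5 of the 3p arm (csn-miR167e_3p, csn-miR167f_3p, csn-miR167g_3p, csn-MIR167n_3p and csn-MIR167p_3p), were followed in a small RNA data set of the tea plant, Camellia sinensis. They were taken by name from the 371 rows of the deposited miRNA table, 19 of which carry a miR167 name and hold 17 distinct sequences. The 9 libraries came from root, flower and leaf of untreated plants, 3 per organ, and keep their labels here, which are root13, root23 and root33, then flower1, flower2 and flower45, then leaf1, leaf23 and leaf41. The species prefix csn- is left out of names from here on. Cultivar, plant age and genotype are not stated in the labels, and neither is the number of plants behind the libraries, so every p-value below measures the spread between libraries, which may be technical.

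miR167 is an old plant miRNA family. In Arabidopsis its 5p strand guides the cleavage of mRNAs for the auxin response factors ARF6 and ARF8, transcription factors that turn auxin into changes in gene expression, and through them it acts in the maturation of stamens and ovules and in adventitious rooting. The strand loaded into an Argonaute protein is called the guide, and the opposite strand of the precursor's duplex, here the 3p arm, is usually discarded. Bases 2 to 8 of a sequence are called the seed here and are marked only to compare the members, since targets were not analysed.

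The sequences are shown because the members differ from each other by as little as 1 base, and the organs differ in which of them they hold. They were copied from the deposited table with T written as U, and capitals mark bases 2 to 8.
miR167h_5p: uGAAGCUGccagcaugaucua
miR167b_5p: uGAAGCUGccagcaugaucuag
miR167e_5p: uGAAGCUGccagcaugaucug
miR167f_3p: gAUCAUGUgguagcuucacc
miR167g_3p: aGAUCAUGugguagcuucacc
MIR167n_3p: gAUCGUGUgguagcuucacc
MIR167p_3p: gAUCAUGUggguagcuucacc
miR167e_3p: gAUCAUAUggcagcuucacc

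The 3 members of the 5p arm shared the seed GAAGCUG and their first 20 bases. With positions counted from 1 at the 5′ end of miR167h_5p, miR167e_5p differed by A21G alone. miR167b_5p was miR167h_5p with 1 further base, a G, at the 3′ end, which made it 22 bases long where the other two had 21. Among the 3p members, miR167g_3p was miR167f_3p with 1 further base at the 5′ end, so that its bases 2 to 8 moved by 1 position. MIR167n_3p differed from miR167f_3p by A5G, miR167e_3p by G7A and U11C, and MIR167p_3p by 1 inserted G. miR167f_3p and MIR167p_3p had the same bases 2 to 8, and the other 3p members each had their own. The sequence of miR167h_5p is also listed as miR167c_5p with the same counts. It was counted once in the shares of the family. The CPM values and the tests of levels kept all rows, repeated sequences included, except where each sequence is said to be counted once. How reads that could belong to several of these near-identical rows were assigned is not given in the sources used here, so counts of neighbouring variants such as miR167h_5p and miR167b_5p may share reads.

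Counting each sequence once, the libraries held 369605 to 1073284 miRNA counts. The miR167 family took between 3.46% and 4.17% of them in the root libraries, between 5.10% and 13.8% in those of flower, and between 17.3% and 21.3% in those of leaf. Across the 155 rows that passed the filter on low counts, leaf41 stood apart from the other leaf libraries, with a correlation of log2 CPM (counts per 1e+06 counts) of 0.803 with leaf1 and 0.831 with leaf23, close to its 0.814 with root33 and 0.798 with root23. Libraries of one organ otherwise correlated at 0.938 to 0.969. Values without leaf41 are therefore given beside the differences from leaf. Leaving out leaf41 also moved the median log2 difference of all rows tested. It went from -0.34 to 1.18 in root against leaf and from -1.16 to 0.35 in flower against leaf. The values without leaf41 include this common shift. The scaling factors by TMM (trimmed mean of M values) ran from 0.506 in leaf1 to 1.446 in root13.

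Which miR167 sequence prevailed differed by organ. In root the pair miR167h_5p and miR167b_5p made up nearly the whole family, in flower miR167e_5p led with miR167h_5p behind it, and in leaf miR167e_5p led with miR167b_5p behind it. miR167e_5p, the form with G at its last base, took 4.17%, 5.05% and 10.01% of the family counts in root13, root23 and root33. Its share was 70.8%, 62.7% and 65.5% in flower1, flower2 and flower45, and 59.8%, 60.8% and 48.4% in leaf1, leaf23 and leaf41. The mean share was 6.41% ± 3.15 for root, 66.4% ± 4.11 for flower and 56.3% ± 6.87 for leaf, each as mean ± SD with n = 3. Root lay far below both other organs with no overlap, and flower lay above leaf by a narrow margin (p = 0.1 for every pair of organs by a two-sided exact permutation test, where 3 libraries against 3 cannot give less). These are bulk extracts, in which fewer cells that hold a miRNA and less of it per cell cannot be told apart.

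The order of the other 5p forms was opposite in flower and leaf. miR167h_5p held 45.8% ± 10.48 of the family counts in root, but 26.1% ± 4.17 in flower and just 2.62% ± 0.99 in leaf, with no overlap between any organs (exact p = 0.1 for each pair). miR167b_5p, the form of 22 bases, held 45.6% ± 12.9 in root, 6.61% ± 2.19 in flower and 40.8% ± 6.11 in leaf. Flower stood below both other organs in this share (exact p = 0.1 each), whereas root and leaf overlapped (exact p = 0.7). Together miR167h_5p and miR167b_5p made up at least 87.6% of the family in each root library, and at most 36.1% in each flower and 51.4% in each leaf library. The 3 members of the 5p arm held 97.6% to 99.8% of the family counts in a library, and the 5 of the 3p arm 0.181% to 2.40%. The other 9 sequences of the family had 149 counts in all libraries together, with at most 18 for any 1 sequence in a library.

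**Figure D1:**
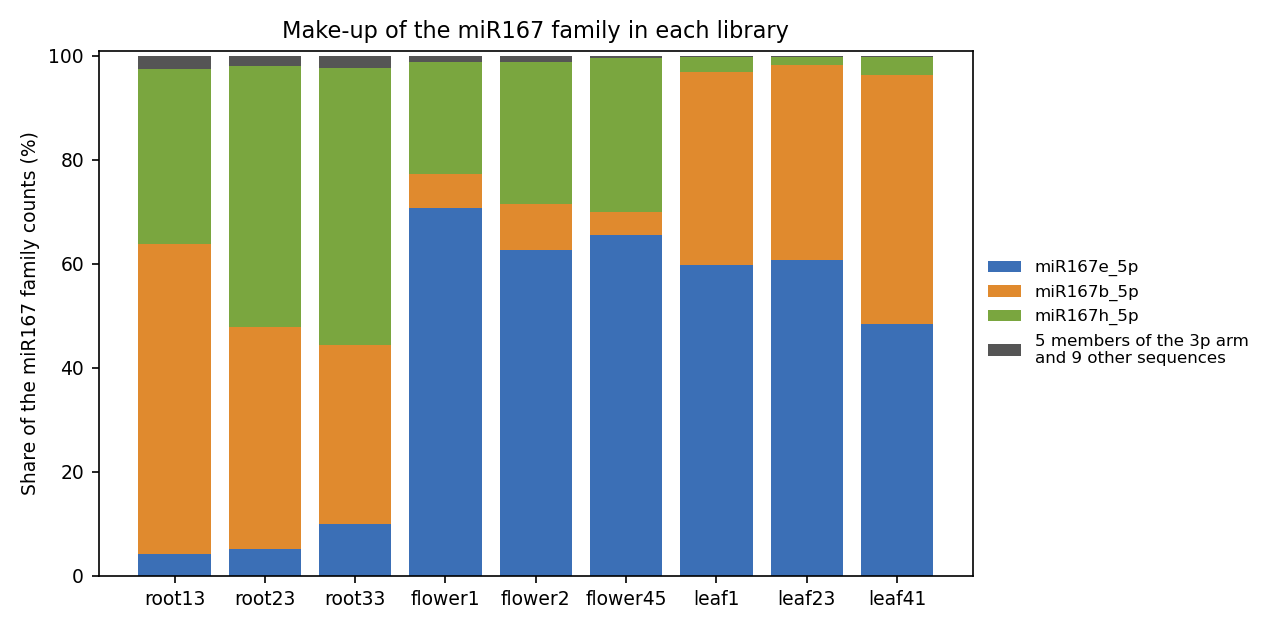
Stacked bars give the share of the miR167 family counts (%), each sequence counted once, in each of the 9 libraries. The share of miR167e_5p is 4.17% to 10.01% in root and at least 48.4% in every flower and leaf library, and the remainder is mostly miR167h_5p in flower and miR167b_5p in leaf.

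As levels, miR167e_5p had 642, 1156 and 2048 counts in root13, root23 and root33, 71812, 34325 and 79165 in flower1, flower2 and flower45, and 62168, 49989 and 46765 in leaf1, leaf23 and leaf41. Every root library was below every flower and leaf library. After TMM scaling this was 1138 ± 558 CPM in root and 36180 ± 17350 in flower (SD, n = 3 each), a log2 difference of 4.99 ± 0.60 SE for flower over root (adjusted p = 5.29e-05). The difference of root from leaf was -6.38 ± 0.64 (adjusted p = 2.28e-05), and -5.21 without leaf41 (adjusted p = 7.59e-05). Unless another fit or test is named, adjusted p-values of levels come from edgeR's quasi-likelihood test with Benjamini-Hochberg adjustment over the 155 rows. Fits with another scaling or without 1 library adjust over the rows that passed the filter in that fit, 169 without leaf41. Adjusted p-values of the DESeq2 test come from DESeq2 itself.

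Between flower and leaf the level of miR167e_5p was not firmly different. The test called it lower in flower (log2 -1.39 ± 0.51 SE, adjusted p = 0.0453), but the median of all 155 rows was itself -1.16, so that it lay only -0.23 from that median. The call was lost under each of the 4 other scalings, where the difference ran up to 0.25 in the opposite direction, and whichever single library was left out (-0.47 without leaf41).

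miR167b_5p had 9173, 9803 and 7018 counts in the root libraries, 6623, 4830 and 5387 in the flower libraries and 38700, 30762 and 46260 in the leaf libraries. Leaf was high, flower low and root between them, and no organs overlapped in CPM, with 65480 ± 23920 in leaf, 8019 ± 1913 in root and 3278 ± 1213 in flower (SD, n = 3 each). Flower was lower than leaf by log2 -4.32 ± 0.44 SE (adjusted p = 1.49e-05), and root lower than leaf by -3.03 ± 0.42 (adjusted p = 0.000225). Both were called under all 5 scalings and whichever library was left out. Without leaf41 they were -3.26 (adjusted p = 0.000588) and -1.99 (adjusted p = 0.0112). Flower was also called lower than root (-1.29 ± 0.39, adjusted p = 0.0175), a call lost with the authors' divisor as library size (-0.58), with the DESeq2 test (-0.85, adjusted p = 0.0572) and without root33, flower2, flower45 or leaf41 in turn (-1.27 to -1.02).

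miR167h_5p, of 21 bases and ending in A, had 5202, 11498 and 10898 counts in the root libraries, 21762, 14914 and 35704 in the flower libraries and 2929, 1267 and 3371 in the leaf libraries. In CPM, root overlapped with flower and with leaf, and the lowest flower library (7336) stood just above the highest leaf library (7035). Flower was called higher than leaf (log2 1.66 ± 0.53 SE, adjusted p = 0.0242) under all 5 scalings, though not without flower45 (1.55) or leaf23 (1.39), and stood at 2.92 without leaf41. Root over leaf was 0.91 ± 0.53 (adjusted p = 0.161), a difference that was called under the 4 other scalings (1.34 to 1.91) and without root13 (2.61), root23 (2.03) or leaf41 (2.30). The median of all rows tested, -0.34 over all libraries, rose as well in those fits, to 1.06 without root13, 0.68 without root23 and 1.18 without leaf41. Flower over root was 0.75 ± 0.52 (adjusted p = 0.254) and was called under 2 of the 5 scalings. The DESeq2 test called both flower over root (1.30, adjusted p = 0.0402) and root over leaf (1.34, adjusted p = 0.0369).

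The 3p members were rare beside the 5p arm, and 3 of them peaked in different organs. MIR167p_3p was highest in root, with 296, 320 and 308 counts in root13, root23 and root33, 9, 2 and 0 in flower1, flower2 and flower45, and 3, 2 and 3 in leaf1, leaf23 and leaf41. The 0 in flower45 allows a level of up to 1.56 CPM, counting error alone considered. Root, at 283 ± 30.4 CPM, did not overlap with flower (2.44 ± 3.40) or leaf (4.64 ± 2.23; SD, n = 3 each). Root exceeded leaf by log2 5.95 ± 1.29 SE (adjusted p = 0.00452), and flower was below root by -6.86 ± 1.32 (adjusted p = 0.00144), both under all 5 scalings and without any 1 library. Without leaf41 root exceeded leaf by 6.95 (adjusted p = 0.00188). Flower and leaf, both near the counting floor, overlapped (adjusted p = 0.543).

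miR167g_3p was highest in flower, with 788, 431 and 343 counts in flower1, flower2 and flower45. The root libraries held 9, 16 and 56 and the leaf libraries 11, 5 and 17. At 315 ± 208 CPM in flower, it stood above leaf (18.1 ± 9.34) by log2 4.12 ± 1.02 SE (adjusted p = 0.00759) and above root (23.7 ± 21.3) by 3.72 ± 0.99 (adjusted p = 0.00946), with no overlap. Root and leaf overlapped (0.40 ± 0.93, adjusted p = 0.761), with a difference of 2.04 without leaf41 (adjusted p = 0.145), where flower over leaf was 5.36 (adjusted p = 0.00416). Both flower calls were made under all 5 scalings and in all 9 fits that left out 1 library.

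miR167e_3p was highest in leaf, with 155, 189 and 131 counts in leaf1, leaf23 and leaf41, 52, 17 and 22 in the flower libraries and 5, 8 and 8 in the root libraries. Leaf stood at 276 ± 112 CPM, flower at 18.8 ± 15.5 and root at 6.30 ± 0.81 (SD, n = 3 each), and no organs overlapped. Root was below leaf by log2 -5.43 ± 0.99 SE (adjusted p = 0.00158) and flower below leaf by -3.88 ± 0.91 (adjusted p = 0.0055), under all 5 scalings and whichever library was left out. Without leaf41 these were -4.50 (adjusted p = 0.00259) and -3.14 (adjusted p = 0.0133). Flower over root was 1.55 ± 0.86 (adjusted p = 0.165), called with the authors' divisor (2.14, adjusted p = 0.0291) and with the DESeq2 test (1.94, adjusted p = 0.0133).

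miR167f_3p and MIR167n_3p were not called in any pair of organs with TMM scaling over all rows and all 9 libraries. miR167f_3p had 41, 74 and 71 counts in the root libraries, 253, 115 and 103 in the flower libraries and 19, 13 and 18 in the leaf libraries, and flower did not overlap with leaf in CPM. Its difference of flower from leaf was log2 1.73 ± 0.82 SE (adjusted p = 0.0981). It was called under the 4 other scalings (2.38 to 3.25) and without root13, root23 or root33 in turn. Without leaf41 it was 2.64 (adjusted p = 0.0522). The median of all rows tested in flower against leaf, -1.16 over all libraries, rose as well in the fits without a root library. It was -0.11 without root13, -0.05 without root23 and -0.08 without root33, and -0.48 to 0.49 under the 4 other scalings. For miR167f_3p, the difference of root from leaf was 0.94 ± 0.80 (adjusted p = 0.343). It was called with each sequence counted once (1.91, adjusted p = 0.0497), with the DESeq2 test (1.34, adjusted p = 0.0369) and without root13 (2.55). Without leaf41 it was 2.09 (adjusted p = 0.102). The median of all rows tested in root against leaf was -0.34 over all libraries. It was 0.56 with each sequence counted once, -0.01 with the DESeq2 test and 1.06 without root13. MIR167n_3p had 18, 27 and 39 counts in the root libraries, 73, 63 and 48 in the flower libraries, and 0, 1 and 14 in leaf1, leaf23 and leaf41, so that leaf41 held nearly all of its leaf reads. The 0 in leaf1 allows up to 7.21 CPM. Without leaf41, MIR167n_3p was called higher in root (log2 5.72, adjusted p = 0.00404) and in flower (6.04, adjusted p = 0.00405) than in leaf, where the values over all libraries were 1.93 ± 1.01 and 2.44 ± 1.02 (adjusted p = 0.136 and 0.0667). Over all libraries, its difference of flower from leaf was called with the DESeq2 size factors (3.21, adjusted p = 0.0281) and with the authors' divisor (3.64, adjusted p = 0.0322). The DESeq2 test called both differences from leaf (2.27 for root and 3.22 for flower).

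**Figure D2:**
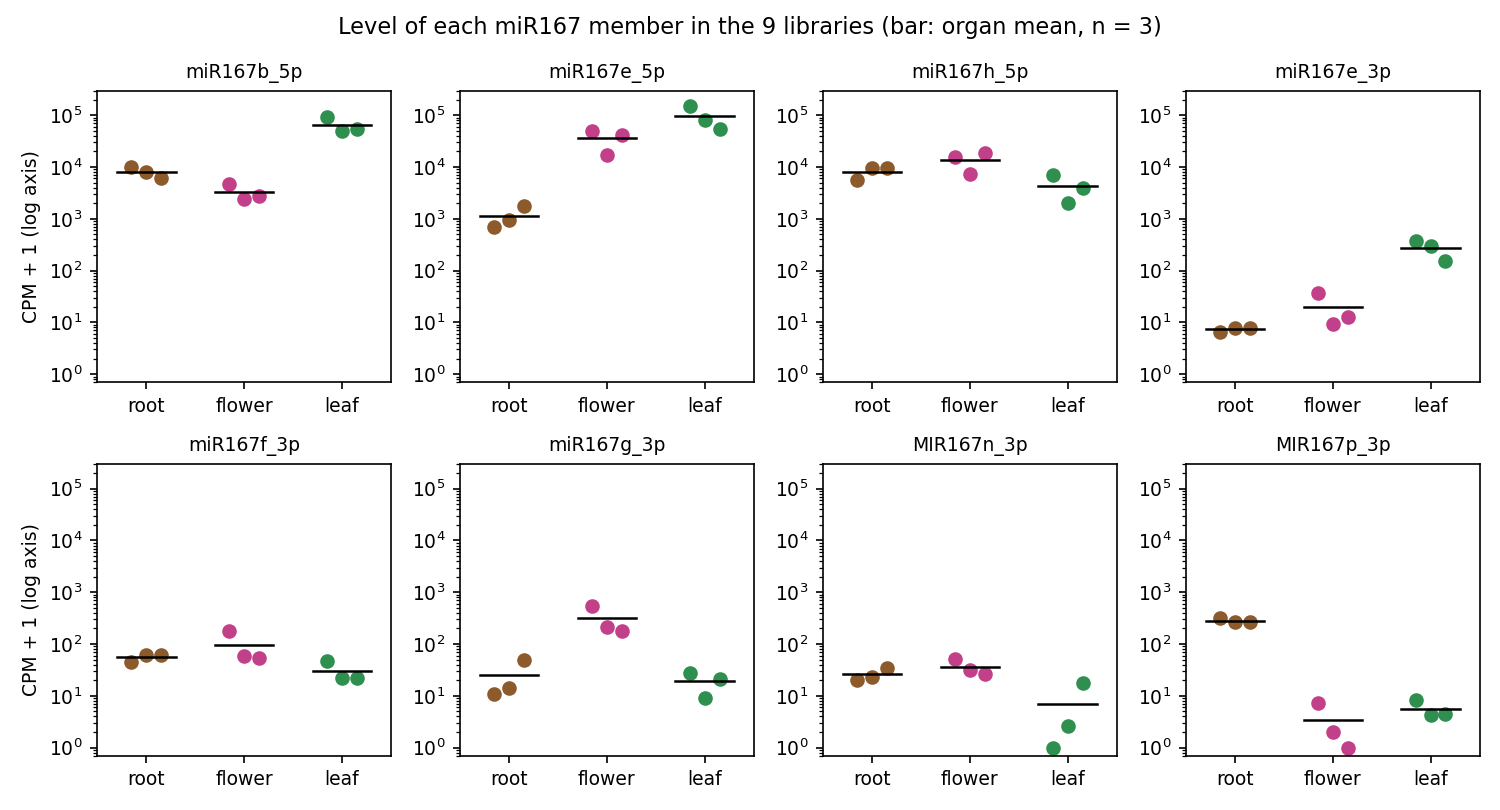
Each panel plots 1 member's level as CPM + 1 after TMM scaling, on a log axis, in the 3 libraries of each organ (points) with the organ mean (bar). miR167b_5p and miR167e_3p are highest in leaf, miR167g_3p in flower and MIR167p_3p in root, while miR167h_5p stays between 2029 and 18560 CPM in all libraries.

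Counted over the members, root and leaf differed for 4 of 8, with MIR167p_3p higher in root and miR167b_5p, miR167e_5p and miR167e_3p lower. Over all 155 rows tested 32.3% were called in that comparison, 9.03% higher and 23.2% lower in root. The median log2 difference was 0.66 for the members and -0.34 for all rows. Flower and leaf differed for 5 of 8, with miR167h_5p and miR167g_3p higher in flower and miR167b_5p, miR167e_5p and miR167e_3p lower, where 43.9% of all rows were called (12.9% higher and 31% lower) and the medians were 0.38 and -1.16. Of these 5, miR167e_5p was called under just 1 of the 5 scalings and in none of the 9 fits that left out 1 library. Flower and root differed for 4 of 8, with miR167e_5p and miR167g_3p higher in flower and miR167b_5p and MIR167p_3p lower, where 44.5% of all rows were called (16.8% higher and 27.7% lower) and the medians were 0.77 and -0.07. With 8 members these counts are near the share over all rows and are no result particular to miR167. The balance of directions moved with the scaling. With each sequence counted once, 3 members were higher and 3 lower in root against leaf, in place of 1 and 3. With the authors' divisor, 4 were higher and 2 lower in flower against leaf, in place of 2 and 3, and 4 were higher and 1 lower in flower against root, in place of 2 and 2. The comparisons share libraries, so the counts are not independent of each other.

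**Figure D3:**
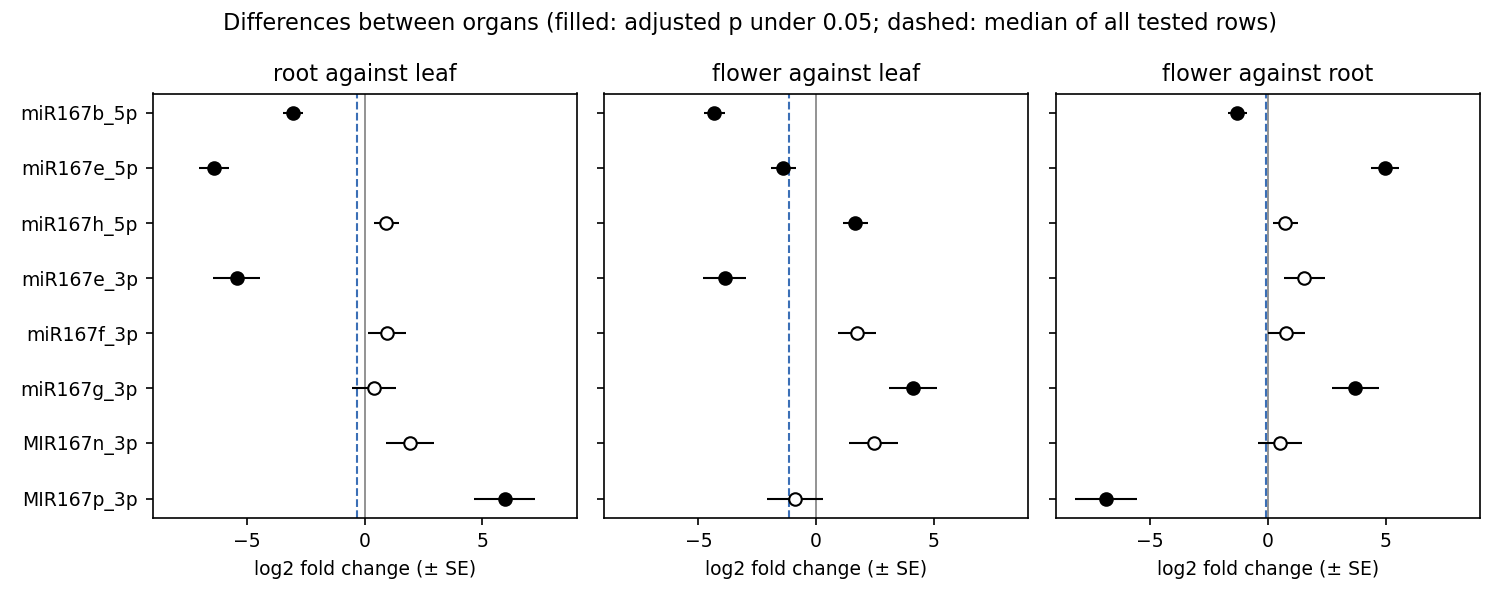
Points give each member's log2 fold change with its SE for the 3 pairs of organs. Filled points have an adjusted p under 0.05, and the dashed line is the median of all 155 rows, which lies at -0.34, -1.16 and -0.07. miR167e_5p runs from -6.38 for root against leaf to 4.99 for flower against root, and in flower against leaf it sits next to the dashed line.

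Ratios between members of the same library do not depend on the scaling between libraries. miR167e_5p against miR167b_5p, the most abundant 5p members, had a log2 ratio of -3.84, -3.08 and -1.78 in root13, root23 and root33, 3.44, 2.83 and 3.88 in flower1, flower2 and flower45, and 0.68, 0.70 and 0.02 in leaf1, leaf23 and leaf41. The geometric mean of the ratio was 0.134 in root, 10.4 in flower and 1.38 in leaf. No organs overlapped, and leaf41 held both forms in nearly equal number. Over the 39 comparisons of shares and ratios made, an exact p of 0.1 became 0.111 after Benjamini-Hochberg adjustment, so none of them can pass a threshold of 0.05 in this design.

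The 2 arms named miR167e did not keep a fixed ratio. miR167e_5p outnumbered miR167e_3p by a geometric mean of 156 in root, 335 in leaf and 2110 in flower. The log2 ratio was 7.29 ± 0.55 in root, 8.39 ± 0.31 in leaf and 11.045 ± 0.69 in flower (SD, n = 3 each), with no overlap between organs (exact permutation p = 0.1 for each pair). In root the ratio rests on 5 to 8 counts of miR167e_3p per library, and with 5 counts added in place of 0.5 the log2 difference of root from leaf went from -1.10 to -1.75.

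A further 3 ratios were chosen after their values were seen, for pairs whose sequences differ by 1 base. miR167h_5p against miR167b_5p, without and with the last G, had a geometric mean ratio of 1.01 in root, 4.07 in flower and 0.061 in leaf. Root was split, with miR167b_5p ahead in root13 (log2 ratio -0.82) and miR167h_5p ahead in root23 (0.23) and root33 (0.64). miR167g_3p against miR167f_3p, with and without the first A, stood at 3.38 in flower, where all 3 libraries lay between 3.11 and 3.74, at 0.342 in root and at 0.61 in leaf. Root and leaf overlapped in this ratio (exact p = 0.3) and flower did not overlap with either. MIR167p_3p against miR167f_3p, with and without the inserted G, stood at 5.10 in root, 0.0158 in flower and 0.185 in leaf, with no overlap between organs (exact p = 0.1 for each pair). The flower and leaf values rest on 0 to 9 counts of MIR167p_3p per library and on the 0.5 counts added. With 5 counts added, the log2 difference of flower from root went from -8.34 to -6.51, that of flower from leaf from -3.55 to -2.76, and that of root from leaf from 4.79 to 3.76.

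**Figure D4:**
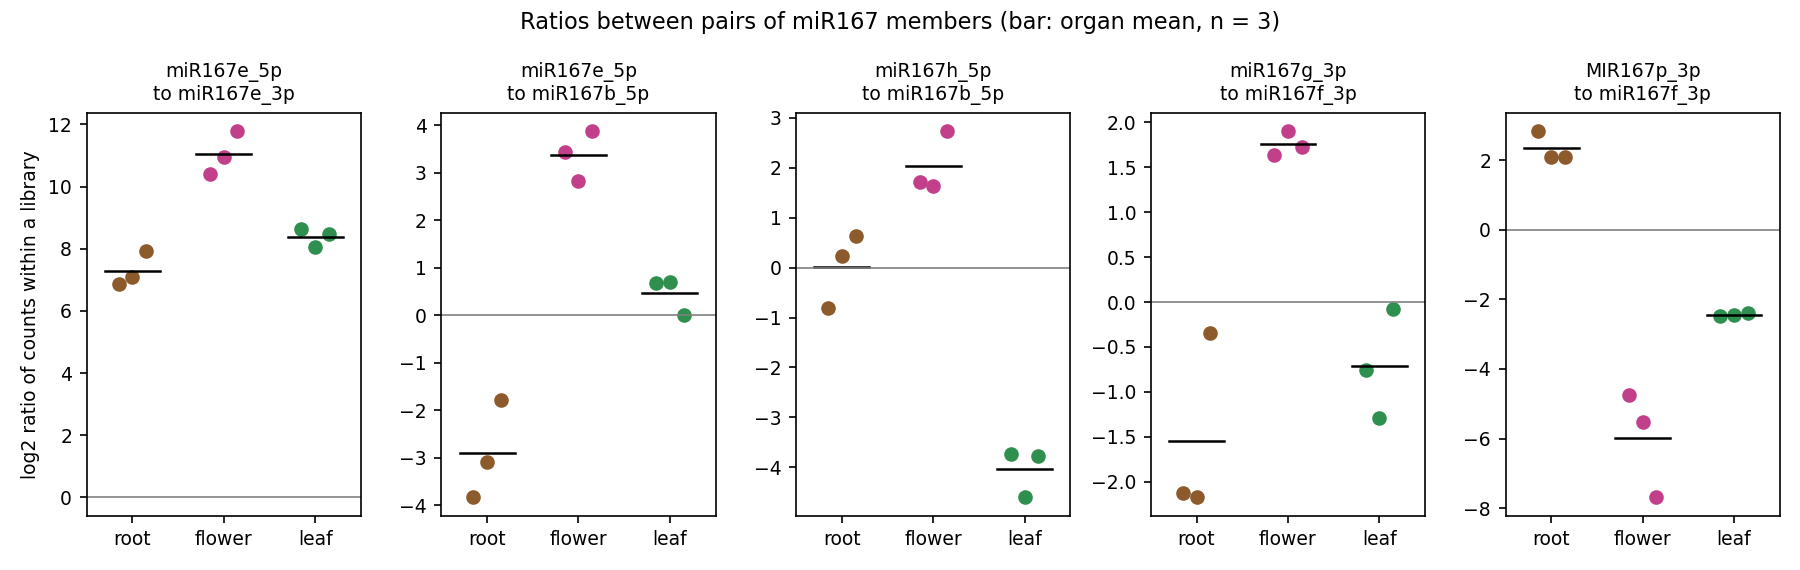
Each panel plots the log2 ratio of the counts of 2 members within a library (0.5 counts added to both), with points for the 3 libraries of an organ and a bar for their mean. The ratio of miR167e_5p to miR167b_5p is below 0 in every root library and above 2.8 in every flower library, and that of miR167h_5p to miR167b_5p is below -3.7 in every leaf library.

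The complement of each 3p member was looked for among the 5p sequences of the family. Duplexes computed with RNAduplex paired miR167f_3p most stably with the rare miR167a_5p (-32.0 kcal/mol, 17 base pairs), and miR167g_3p too (-33.1 kcal/mol, 18 base pairs), each without a mismatch over the bases aligned. MIR167n_3p paired best with miR167d_5p (-33.4 kcal/mol, 17 base pairs). These 5p rows held 3 counts (miR167a_5p) and 10 counts (miR167d_5p) over all 9 libraries, against 707, 1676 and 283 counts of miR167f_3p, miR167g_3p and MIR167n_3p. MIR167p_3p and miR167e_3p paired best with the 5p sequences of seed GAAGCUG, at -29.4 and -27.5 kcal/mol, and did so equally with miR167b_5p, miR167e_5p, miR167h_5p and the rare miR167i_5p (80 counts). The energies describe the listed sequences alone, since precursors were not analysed here.

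Other miRNAs of the auxin pathway were taken as all 21 rows of miR160, which targets further auxin response factor genes, miR390, which starts the production of small RNAs against such genes, and miR393, which targets the TIR1 family of auxin receptors. Of these, 12 rows were tested, and some of them hold the same sequence under another name. In root against leaf 2 were higher and none lower, in flower against leaf 3 were higher and none lower, and in flower against root 3 were higher and 1 lower. Over all 155 rows tested, 32.3%, 43.9% and 44.5% were called in these comparisons, in the same order. The counts of this list did not exceed that share. The rows that were called belonged to miR390 apart from MIR160k_3p, which was lower in flower than in root (log2 -2.02 ± 0.76 SE, adjusted p = 0.0486). The main rows of miR160 and miR393, MIR160k_5p (3012 CPM over all libraries) and miR393b_3p (396 CPM), were called in no pair (adjusted p = 0.0648 to 0.759). miR390b_5p was called in all 3 pairs, in the order flower, root, leaf. The rarer miR390a_5p was called in all 3 pairs too, at a mean of 16.25 CPM in flower, 2.78 in root and 0 in leaf. Its root and leaf levels lie near the limit of detection. Unlike miR390b_5p, miR167e_5p was lower in root than in leaf.

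By likeness of pattern, measured as the Pearson correlation of log2 CPM over the 9 libraries among 120 sequences of other families, miR167b_5p was closest to miR535a_5p (r = 0.988) and miR828a_5p (0.96). miR167e_3p was closest to miR168a_3p (0.988) and MIR168g_3p (0.981), and MIR167p_3p to the sequence of miR171b_3p and miR171m_3p (0.954) and to miR171g_3p (0.952). miR167e_5p was closest to miR166f_5p and miR171h_5p (0.946 each), and miR167g_3p to miR172f_3p (0.938) and miR390b_3p (0.92). MIR167n_3p stood closest to the sequence of MIR166o_3p, miR166h_3p and MIR845h-3p (0.902) and to miR396d_3p (0.859). The least matched were miR167f_3p, with miR171h_3p (0.841) and MIR171r_3p (0.809), and miR167h_5p, with miR390b_5p (0.806) and the sequence of MIR166o_3p (0.765). The 9 points are 3 libraries from each of 3 organs and share depth and scaling, so these values describe the libraries and carry no test.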

How the data were processed

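Per the labels' protocols, total RNA was isolated with TRIzol and libraries were made by standard Illumina protocols. How reads were trimmed, aligned and counted, and on which build, is not given in the sources used here. Deposited in 1 table, the data comprise raw whole-number counts per miRNA and library, and beside them a normalised score, RPTM per the file headers, which the authors rounded and which was used here only to recover 1 divisor per library. Totals per library were 643051 to 1788497 counts over all rows. One blank row (1 row, no counts) was left out.

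The test on counts was the quasi-likelihood test of edgeR 4.0.16, run in R 4.3.3 (glmQLFit, glmQLFTest, TMM, filterByExpr by organ, all 9 libraries in 1 fit, Benjamini-Hochberg threshold 0.05). The SE is the absolute log2 fold change over the square root of F. The filter kept 155 of 371 rows, all 8 members among them, and repeated sequences stayed as separate rows. The 5 scalings were TMM, TMM with each sequence once, the authors' divisor, library totals and DESeq2 size factors. Shares (each sequence once) and log2 ratios (0.5 counts added) went through exact permutation tests, two-sided. DESeq2 1.42.0, no filter, only the 6 libraries compared and leaving out each library were alternatives. Duplexes used RNAduplex of ViennaRNA 2.7.2. The edgeR steps were also run on simulated counts in which rows changed in root only, unlike in these data. No result above rests on that run. Intervals and limits for 0 counts (3 counts per library) cover counting error only.

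The members, the auxin list (miR160, miR390, miR393) and the tests were chosen with earlier results of these data known. Named rows were the 8 members, the 2 most similar rows of other families for each, and from the auxin list the most abundant row per family and rows called in all 3 comparisons. MIR160k_3p, miR167a_5p, miR167d_5p and miR167i_5p were named after their values were seen.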

Additional observations from a re-analysis of the deposited data

Results flagged for a closer look

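In 4 within-library ratios, 1 member was ahead in every library of an organ and behind in every library of another. For miR167e_5p against miR167b_5p, the mean log2 ratio was 3.38 in flower and 0.47 in leaf but -2.90 in root. For miR167h_5p against miR167b_5p it was 2.02 in flower and -4.03 in leaf. For miR167g_3p against miR167f_3p it was 1.76 in flower, -1.55 in root and -0.71 in leaf. For MIR167p_3p against miR167f_3p it was 2.35 in root, -5.99 in flower and -2.44 in leaf. Each of these opposite pairs of organs gave the smallest p an exact permutation test of 3 libraries against 3 can give (0.1, two-sided), and the last 3 ratios were chosen after the values were seen. How reads were assigned between rows that differ by 1 base was not tested.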

How the results depend on the processing

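Of the members, 4 were called in root against leaf under all 5 scalings and in all 9 fits without 1 library, 3 in flower against leaf and 3 in flower against root. The count for root against leaf was 4 and rose to 7 with the DESeq2 test, and lay at 4 to 6 with 1 library left out. For flower against leaf it was 5, and 3 to 5 with 1 library left out, with 3 without flower45 or without leaf23. The median log2 fold change of all rows tested moved with the scaling, from -1.16 to 0.49 in flower against leaf. In root against leaf it went from -0.34 with all rows to 0.56 with each sequence counted once.

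The level of miR167e_5p in flower against leaf turned to 0.25 and that of MIR167p_3p to 0.46 with the authors' divisor. With 1 library left out, MIR167p_3p ran from -2.63 to 0.09 in that comparison, and MIR167n_3p from -0.12 to 0.96 in flower against root. These were not called apart from miR167e_5p with TMM.

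Several differences in family share, in percentage points, turned. Over all rows of the family, which counts the sequence of miR167h_5p 2 times, miR167b_5p in root minus leaf went from 4.73 to -7.96, miR167e_5p in flower minus leaf from 10.04 to -2.19, and miR167e_3p in flower minus root to 0.00255. As a share of all miRNA counts, where the family itself is larger in leaf and flower, miR167b_5p in root minus leaf was -5.92, miR167e_5p in flower minus leaf -4.00, and in flower minus root miR167h_5p was 0.847, miR167e_3p 0.00187, miR167f_3p 0.00458 and MIR167n_3p 0.00089. MIR167p_3p in flower minus leaf was -0.000145. With 1 library left out, miR167b_5p in root minus leaf ran from -2.28 (without root13) to 10.4, miR167e_3p in flower minus root from -0.0109 to 0.00567, and MIR167p_3p in flower minus leaf from -0.00098 to 0.00346. The ratios kept their direction with a pseudocount of 5 counts and without any 1 library. The cause of a change in any of these differences was not tested. MIR167p_3p fell below the filter when only flower and leaf were fitted. No paired analysis was possible because the labels' library numbers are shared by at most 1 library between any 2 organs. At these depths the leaf and flower levels of MIR167p_3p and the leaf level of MIR167n_3p lie near the limit of detection.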
